A study of Mus musculus with 9 samples.

Results

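The 9 genes described here build, test or join the antigen receptor of B cells: the recombination genes Rag1, Rag2 and Dntt, the pre-B-cell receptor genes Vpreb1, Igll1 and Vpreb3, and the immunoglobulin genes Ighm, Igkc and Jchain. They were chosen by name, by matching Ensembl identifiers to mouse symbols in the GENCODE M21 annotation, and are 9 of the 43629 gene rows in the count table. All 9 were found, each with a single row. Of these, 5 had enough reads to test (Rag1, Vpreb1, Vpreb3, Ighm and Igkc), and 4 had too few (Rag2, Dntt, Igll1 and Jchain).

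The libraries come from clone 4242, a single Eµ-Myc lymphoma of mouse B cells grown in culture. An Eµ-Myc tumour carries a Myc transgene under the enhancer of the immunoglobulin heavy chain locus, so every group shares that transgene. Triplicate cultures received DMSO, the solvent, or 1 µM JQ1, or 2.5 µM RG6146, and were collected after 2 h. Both compounds inhibit the BET bromodomain proteins, readers of acetylated histones, and their doses differ. RNA was measured with a 3′ method that gives about 1 read for each polyadenylated transcript, so levels were not divided by gene length. Libraries held 3410161 to 5031717 gene counts, at which 3 counts correspond to between 0.596 and 0.880 CPM, counts scaled to a library's total.

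A B cell makes its receptor in steps. The RAG1 and RAG2 proteins together cut DNA beside V, D and J gene segments, and TdT, the product of Dntt, adds bases to the cut ends before they are joined. A joined heavy chain first pairs with the surrogate light chain, made of VPREB1 and IGLL1 (λ5), to form the pre-B-cell receptor; signalling from it stops heavy chain recombination and starts that of the light chains. The µ heavy chain, whose constant part is encoded by Ighm, then pairs with a κ or λ light chain as surface IgM, and plasma cells later secrete it, with the J chain linking its units. Expression of the Rag genes is normally a mark of pro-B and pre-B cells and ends in mature B cells.

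Promoters were taken from RefSeq on the GRCm38.p6 build, as the 250 bases before the start of each gene; 7 of the 9 genes had an entry, and Ighm and Igkc did not. Starts are those of RefSeq, which for Vpreb3 and Vpreb1 lie inside the longer GENCODE gene spans given with their values. The promoters of Rag1 and Rag2 are shown because the counts of both genes were low after both compounds, and that of Vpreb3 because it is the most abundant of the 7 genes. Capitals mark matches, on either strand, to motifs of B cell regulators: the E-boxes CACCTG and CAGCTG, the octamer ATTTGCAT of the POU2F factors, TGGGAA (Ikaros core), the palindrome of EBF, GTAAACA (FOXO), AACNGTT (MYB) and TGTGGT (RUNX core).
Rag1, chr2:101649533-101649782, minus strand: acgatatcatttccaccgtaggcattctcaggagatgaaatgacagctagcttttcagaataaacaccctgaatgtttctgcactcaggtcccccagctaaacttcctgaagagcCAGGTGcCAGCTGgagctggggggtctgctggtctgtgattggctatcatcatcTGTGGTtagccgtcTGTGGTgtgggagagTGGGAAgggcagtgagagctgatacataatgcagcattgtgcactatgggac
Rag2, chr2:101624462-101624711, plus strand: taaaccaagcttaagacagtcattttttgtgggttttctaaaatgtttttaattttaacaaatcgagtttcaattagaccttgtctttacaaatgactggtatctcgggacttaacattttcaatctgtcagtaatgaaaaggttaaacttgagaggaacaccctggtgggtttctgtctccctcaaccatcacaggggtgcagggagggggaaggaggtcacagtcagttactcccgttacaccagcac
Vpreb3, chr10:75948050-75948299, plus strand: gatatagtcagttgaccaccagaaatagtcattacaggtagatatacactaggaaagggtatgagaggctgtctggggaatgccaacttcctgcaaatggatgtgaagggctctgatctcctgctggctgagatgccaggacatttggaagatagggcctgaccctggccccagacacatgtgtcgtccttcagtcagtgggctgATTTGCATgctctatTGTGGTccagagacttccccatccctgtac
The Rag1 window holds CACCTG (read as its reverse complement) 135 bases and CAGCTG 128 bases before the start, TGTGGT 81 and 67 bases before it, and TGGGAA 52 bases before it, with no overlap between matches. None of these letters occurs in the Rag2 window. The Vpreb3 window holds the octamer 45 bases and TGTGGT 30 bases before the start. Among all 32851 promoter windows in the RefSeq table, the octamer was found in 1.6%, CACCTG in 17.2%, CAGCTG in 13%, TGGGAA in 21.6% and TGTGGT in 14%. Of the other member windows, Vpreb1 holds CACCTG 88 bases before the start. The Igll1 window holds both E-boxes, 158 (CAGCTG) and 8 bases before the start, with the MYB motif at 144 and the RUNX core at 123 bases. Dntt and Jchain hold none of the motifs. AACNGTT was found in 3.8% of all windows, GTAAACA in 3.17% and the EBF palindrome in 0.779%; the last pair was in no window of the 7 genes.

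Rag1 was the member with the largest fall, about 11.9-fold after either compound. The gene lies on the minus strand of chromosome 2 at 101638282 to 101649501 (mm10) and encodes the subunit of the recombinase that cuts DNA. Its raw counts were 61, 31 and 35 in DMSO replicates 1, 2 and 3, then 1, 9 and 0 under JQ1, and 2, 3 and 5 under RG6146. Scaled to library size by TMM, DMSO libraries held 9.56 ± 1.67 CPM (SD, n = 3), JQ1 libraries 0.784 ± 1.18 CPM and RG6146 libraries 0.784 ± 0.341 CPM. All 6 treated libraries lay below the 3 DMSO libraries. JQ1 replicate 2 alone gave 9 of the 10 counts seen under JQ1. In bulk RNA, fewer cells with a transcript and less of it per cell cannot be told apart.

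The log2 fold change of Rag1 was -3.57 ± 0.60 (SE) for JQ1, with a 95% interval of -4.91 to -2.32 and an adjusted p of 0.000581 in edgeR's quasi-likelihood test. For RG6146 it was -3.57 ± 0.60 as well, with an adjusted p of 0.000643. Adjusted p-values are Benjamini-Hochberg values over all 11002 genes tested, and a gene is said to rise or fall where they are under 0.05. By that rule JQ1 changed 28.9% of the tested genes, 15.4% downward, and RG6146 changed 26%, 13.5% downward. Rag1 passed the filter on low counts through its DMSO libraries, where it was high, so its presence among the tested genes is tied to this difference, and its call is given as a description. Pooled counts were also compared as a ratio, scaled by total gene counts without TMM, with an exact interval for counting error only. By this ratio Rag1 under JQ1 stood at 7.29% of its DMSO level (95% interval 3.41% to 13.9%), and under RG6146 at 7.44% (3.48% to 14.1%). Without JQ1 replicate 2, 1 count remained under JQ1, or 1.08% of DMSO (0.0271% to 6.12%), and the log2 fold change was -6.05. Between the compounds the log2 difference of Rag1 was 0.0023, with a 95% interval of -1.94 to 1.94. This difference rests on JQ1 replicate 2: without it the value was 2.48, RG6146 being the higher, with an adjusted p of 0.815 by edgeR, and without other single libraries it ranged down to -0.51.

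Rag2, which encodes the partner subunit that binds methylated histone H3, lies tail to tail with Rag1. It runs on the plus strand from 101624718 to 101632529, 5753 bases away. It had 17, 7 and 20 counts under DMSO, 0, 2 and 0 under JQ1, and 1, 2 and 2 under RG6146, too few for the filter. In CPM the DMSO libraries held 3.20, 1.99 and 4.79, and no treated library held more than 0.506. Without TMM, the pooled JQ1 counts, 2 against 44, correspond to 4.21% of the DMSO level (0.494% to 16.1%), and the RG6146 counts, 5 against 44, to 10.7% (3.32% to 27.0%). Without JQ1 replicate 2, JQ1 had 0 counts of Rag2, which allows up to 12.0% of the DMSO level. A fit without the filter, over 23655 genes, of which JQ1 lowered 7.28% and RG6146 6.73%, gave Rag2 an adjusted p of 1.78e-06 for JQ1 and 0.000113 for RG6146; with reads almost only in DMSO, these too are given as a description. The log2 difference between the compounds in that fit was 1.17 (adjusted p = 0.852 by edgeR).

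The nearest tested genes on either side of the recombinase genes did not pass the test. Traf6, a signalling adaptor gene 28928 bases from Rag1, had log2 fold changes of -0.32 (JQ1, adjusted p = 0.0931) and -0.16 (RG6146, adjusted p = 0.438). On the Rag2 side the protein-coding gene B230118H07Rik overlaps both, and the nearest one with reads beyond it, Gm10800, is 2957417 bases from Rag2. Gm10800 had -0.06 and -0.27, both far from the threshold (adjusted p = 0.911 and 0.623). An exon of B230118H07Rik shares 80 bases with Rag1 on the same strand and 208 bases with Rag2 on the opposite strand. B230118H07Rik held 66 counts over all 9 libraries, too few for the filter, and whether strand was used in counting is not known from the sources used here.

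Dntt, on chromosome 19 at 41029275 to 41059525, had 2, 0 and 0 counts under DMSO, 4, 15 and 0 under JQ1 and 3, 10 and 0 under RG6146. Its reads were unevenly spread: 15 of the 19 JQ1 counts and 10 of the 13 RG6146 counts were in replicate 2, and replicate 3 had none in any group. The treated groups overlapped DMSO. In the fit without a filter Dntt had an adjusted p of 0.0105 for JQ1 (log2 fold change 3.07, 6.93% of genes called higher) and 0.0711 for RG6146 (2.56), while 1 of the 3 JQ1 libraries had no read.

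**Figure D1:**
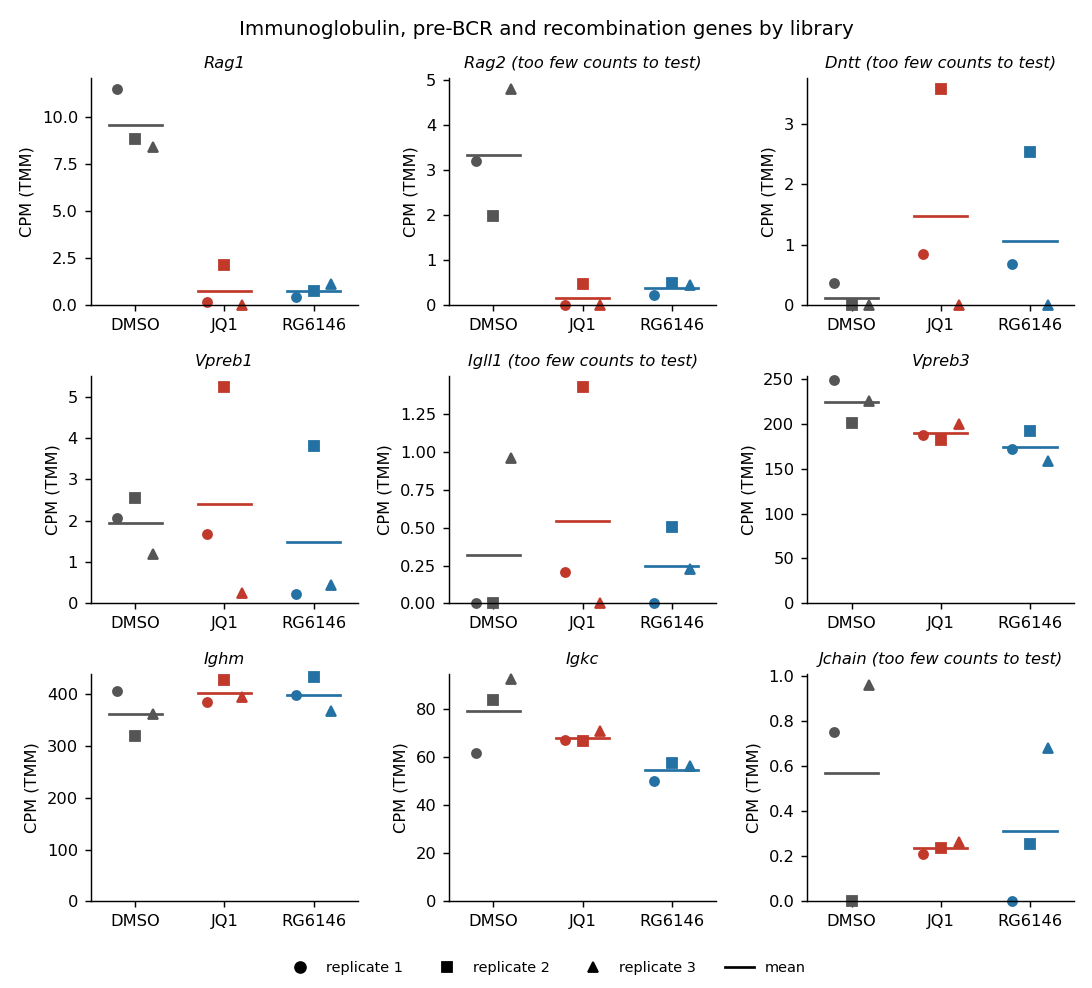
Level of each of the 9 genes in every library, in TMM-normalised CPM on a linear axis from 0; symbols mark replicates 1 to 3 and horizontal lines the group mean. Rag1 and Rag2 are low in all 6 treated libraries, Dntt, Vpreb1 and Igll1 are highest in JQ1 replicate 2, and Ighm groups overlap.

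The surrogate light chain genes gave few reads in this lymphoma, and no change in them could be resolved. Vpreb1 and Igll1 lie 4418 bases apart on the minus strand of chromosome 16, at 16868403 to 16870843 and 16860671 to 16863985. Vpreb1 had 11, 9 and 5 counts under DMSO, 8, 22 and 1 under JQ1, and 1, 15 and 2 under RG6146. The library numbered 2 was the highest of the 3 in CPM in every group, at 2.56, 5.24 and 3.80 CPM, and the groups overlapped. Vpreb1 passed the filter on low counts only through these libraries numbered 2. The log2 fold changes of 0.32 ± 1.02 (JQ1) and -0.42 ± 1.12 (RG6146) did not pass the test (adjusted p = 0.849 and 0.831). Their 95% intervals, -2.05 to 2.70 and -3.03 to 2.18, leave room for a change of 4-fold in either direction. The sign turned without JQ1 replicate 2 (-0.88) and, for RG6146, without RG6146 replicate 1 (0.10) or 3 (0.02). Vpreb1 shares 108 bases of exon with Top3b on the opposite strand, a gene with 418 counts.

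Igll1, the λ5 part of the surrogate light chain, had 0, 0 and 4 counts under DMSO, 1, 6 and 0 under JQ1 and 0, 2 and 1 under RG6146. Under JQ1, replicate 2 held 6 of its 7 counts, as for Dntt. Vpreb2, a near copy of Vpreb1, stood at or below 0.0948 CPM in each group. Ppm1f, a phosphatase gene 25626 bases from Vpreb1, had a log2 fold change of -0.40 for JQ1 (adjusted p = 0.0420) and -0.38 for RG6146 (adjusted p = 0.0562). The JQ1 call of Ppm1f was lost in 9 of the alternative fits, among them DESeq2 (adjusted p = 0.194).

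Vpreb3 was by far the most abundant of the pre-B genes and fell by 1.29-fold after RG6146. Its product binds newly made µ heavy chains inside pre-B cells. The gene lies on the plus strand of chromosome 10, at 75943057 to 75949657. Levels were 248, 200 and 225 CPM in the DMSO libraries, 187, 182 and 200 under JQ1, and 172, 192 and 158 under RG6146. All treated libraries lay below all DMSO libraries, the narrowest gap being between DMSO replicate 2 at 200.4 CPM and JQ1 replicate 3 at 199.7 CPM.

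The fall of Vpreb3 passed the test for RG6146, with a log2 fold change of -0.37 ± 0.09 (adjusted p = 0.00643 by edgeR). For JQ1 the value was -0.25 ± 0.09 with an adjusted p of 0.0525, just short of the threshold. Groups that did not overlap, with the treated side lower, were seen for 22% of tested genes after JQ1 and 20.9% after RG6146. The difference between the compounds was -0.12 (95% interval -0.31 to 0.07). The RG6146 call was lost when libraries were scaled by the ERCC spike-in RNAs (-0.33, adjusted p = 0.473) but not when a replicate block was added to that scaling, and the JQ1 value passed in several other fits given in the closing section. The gene next to it, Gm867, which is 2385 bases away, did not pass (0.18 and 0.29).

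Ighm had the highest level of the 9 genes and did not pass the test after either compound. The gene lies on the minus strand of chromosome 12, at 113418558 to 113422730. It held 405, 318 and 361 CPM under DMSO, 384, 428 and 395 under JQ1, and 398, 432 and 366 under RG6146. The 3 groups overlapped, and DMSO replicate 2 was the lowest library. The log2 fold changes were 0.15 ± 0.09 (JQ1, adjusted p = 0.213) and 0.14 ± 0.09 (RG6146, adjusted p = 0.267). Their 95% intervals, -0.03 to 0.34 and -0.05 to 0.33, leave out a fall of more than 0.05 on the log2 scale. Between the compounds the difference was -0.01 (-0.20 to 0.17).

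Igkc, the constant gene of the κ light chain, was lower after RG6146. It lies on the plus strand of chromosome 6, at 70726435 to 70726966, inside the longer non-coding gene Gm30211. The DMSO libraries held 61.9, 83.9 and 92.3 CPM, the JQ1 libraries 66.9, 66.6 and 70.8 CPM, and the RG6146 libraries 49.9, 57.7 and 56.3 CPM. RG6146 libraries lay below all the others, and against JQ1 4.54% of tested genes had RG6146 as the lower group without overlap; JQ1 libraries lay within the DMSO range. The log2 fold change for RG6146 was -0.54 ± 0.12 (95% interval -0.80 to -0.28, adjusted p = 0.00379), a fall of 1.45-fold. For JQ1 it was -0.22 ± 0.12 (adjusted p = 0.202), and without DMSO replicate 1, the lowest DMSO library, -0.37 (adjusted p = 0.0137). RG6146 against JQ1 gave -0.32 (95% interval -0.58 to -0.06), with a raw p of 0.0198 and an adjusted p of 0.999 by edgeR. The RG6146 fall kept its size with ERCC scaling (-0.53) but not its call (adjusted p = 0.175), which it kept with ERCC scaling and a replicate block.

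The ratio of Ighm to Igkc counts within a library does not depend on how libraries are scaled. It was 6.54, 3.79 and 3.91 under DMSO, 5.74, 6.41 and 5.56 under JQ1, and 7.95, 7.47 and 6.49 under RG6146. RG6146 libraries lay above all JQ1 libraries, while DMSO replicate 1 lay among the treated ones. On the log2 scale the mean ratio was 2.20 ± 0.44 (SD, n = 3), 2.56 ± 0.11 and 2.86 ± 0.15. The exact two-sided permutation p was 0.4 for JQ1 against DMSO, 0.2 for RG6146 against DMSO and 0.1 for RG6146 against JQ1, and 0.1 is the smallest that 3 against 3 libraries allow.

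Jchain, on chromosome 5 at 88519809 to 88527891, had at most 4 counts in any library: 4, 0 and 4 under DMSO, 1 in each JQ1 library, and 0, 1 and 3 under RG6146. This secretory gene was thus at or under 0.959 CPM throughout, and no difference was detectable at this depth. Its neighbour Utp3, a ribosome assembly gene, had -0.05 and -0.06 (adjusted p = 0.684 and 0.668).

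Under DMSO the 9 genes ranked Ighm (361 ± 43.3 CPM, SD, n = 3), Vpreb3 (224 ± 23.8), Igkc (79.4 ± 15.7), Rag1 (9.56 ± 1.67), Rag2 (3.33 ± 1.41), Vpreb1 (1.94 ± 0.689), Jchain (0.570 ± 0.505), Igll1 (0.320 ± 0.554) and Dntt (0.125 ± 0.217). The first 5 did not overlap one another in the 3 DMSO libraries, whereas Rag2 overlapped Vpreb1, and Jchain, Igll1 and Dntt overlapped each other. After either compound the level of Rag1 overlapped that of Vpreb1.

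Of the 5 tested members, 1 was called lower after JQ1 (Rag1) and 3 after RG6146 (Rag1, Vpreb3 and Igkc), and none higher, beside 15.4% and 13.5% of all tested genes called lower. With 5 genes, of which Rag1 was tested only through its DMSO level, these counts and medians are a description. The median log2 fold change of the 5 was -0.22 for JQ1 and -0.42 for RG6146, beside 0.0047 and 0.0086 over all tested genes. The JQ1 median is the value of Igkc and the RG6146 median that of Vpreb1, and neither passed in that comparison. Vpreb1 had few reads and its sign turned without single libraries, so the RG6146 median does not measure a shift of the members. None of the 5 passed the adjusted threshold between the compounds, where 0.00909% of tested genes, a single gene, was called by edgeR, 1 by DESeq2 and 427 had an unadjusted p under 0.05. With JQ1 replicate 2 and RG6146 replicate 2 left out, Rag2 passed the filter and Vpreb1 did not. In that fit RG6146 still lowered Vpreb3 (-0.44, adjusted p = 0.00448 by edgeR) and Igkc (-0.58, adjusted p = 0.0178), while Ighm did not pass after either compound (adjusted p = 0.422 and 0.605).

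**Figure D2:**
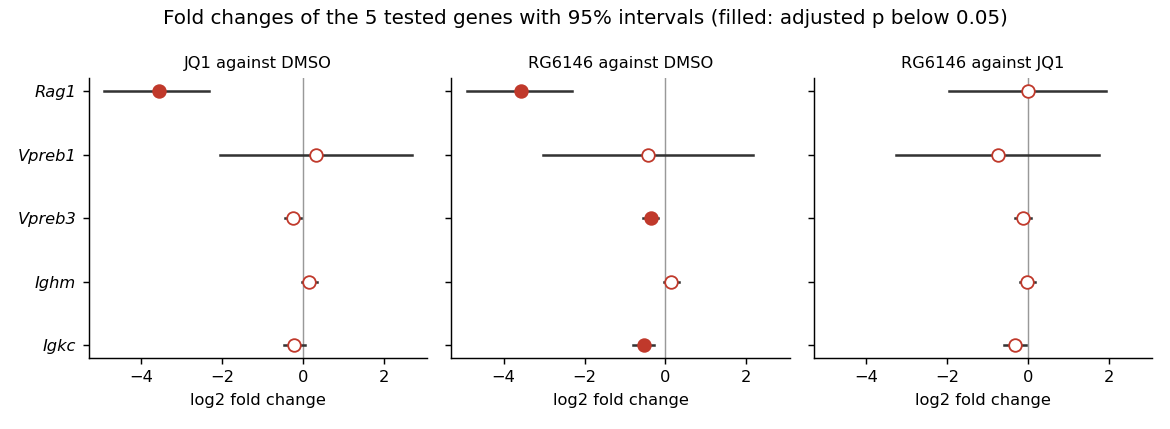
log2 fold change of the 5 tested genes in the 3 comparisons, with 95% intervals; filled points have an adjusted p below 0.05. Rag1 lies near -3.57 in both comparisons with DMSO and near 0 between the compounds, where its interval runs from -1.94 to 1.94.

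The other immunoglobulin gene segments extend the picture of the receptor loci; V genes encode the variable part of a chain. Of 173 heavy chain V genes in the table, 5 had a read, and Ighv10-1 took 95.6% of the counts. All heavy chain V genes together held 66, 29 and 40 counts under DMSO, 64, 47 and 51 under JQ1, and 67, 57 and 56 under RG6146. Ighv10-1 did not pass the test, with log2 fold changes of 0.35 ± 0.18 (adjusted p = 0.16) and 0.45 ± 0.18 (adjusted p = 0.0794). The 20 D segments had no read.

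Among 103 κ V genes, reads fell on 54, and families 3 and 4 took most of them. Family 3 held 123, 80 and 95 counts under DMSO, 100, 73 and 64 under JQ1 and 94, 71 and 84 under RG6146, with 68.6% on Igkv3-4. These raw counts overlapped between groups, but the libraries differ in depth. Pooled by group and scaled to total gene counts, family 3 held 24.2 CPM under DMSO, 17.8 under JQ1 and 19.1 under RG6146. Igkv3-4 had a log2 fold change of -0.44 ± 0.15 for JQ1 (adjusted p = 0.0380) and -0.24 ± 0.15 for RG6146 (adjusted p = 0.276). The JQ1 call was lost in 11 alternative fits, DESeq2 among them (adjusted p = 0.228). Igkv3-3, Igkv3-9 and the joining segments Igkj3 and Igkj5 did not pass in either comparison.

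The κ V genes of family 4 were singled out after their counts were seen, and their sums are given as a description. The 27 genes held 72, 70 and 73 counts in the DMSO libraries, 8, 7 and 9 under JQ1 and 5, 8 and 8 under RG6146. All 6 treated libraries thus had fewer than 10 reads, against at least 70 in each DMSO library. Reads were spread over 26 of the genes, and 24 of these had a lower pooled CPM after JQ1, and 24 after RG6146. Igkv4-51 alone passed the filter, with 20, 12 and 21 counts under DMSO, 1, 2 and 0 under JQ1 and 0, 0 and 3 under RG6146. Its log2 fold change was -3.96 ± 0.75 for each compound (adjusted p = 0.000483 and 0.000534). Like Rag1, it passed the filter only through DMSO. Igkv4-81 had 9, 10 and 9 counts under DMSO and a single count in the 6 treated libraries. Igkv4-58 had 7, 11 and 10 counts under DMSO and 0 to 3 in the treated libraries. Genes of this family are close in sequence, so the split of reads between them is uncertain, and a count does not tell a joined V gene from an unjoined one.

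Both tested λ light chain genes were lower after both compounds. Like Rag1, they passed the filter only through DMSO, so their calls are a description. Iglv3, a λ V gene, had 52, 32 and 27 counts under DMSO, 11, 9 and 8 under JQ1 and 4, 5 and 5 under RG6146, with no overlap between any of the groups. Its log2 fold change was -1.94 ± 0.31 for JQ1 (adjusted p = 0.000112) and -2.91 ± 0.34 for RG6146 (adjusted p = 5.89e-06). The difference of -0.97 ± 0.41 between the compounds did not pass (adjusted p = 0.999). Iglc2, a λ constant gene, had 30, 12 and 36 counts, then 10, 7 and 10, then 6, 7 and 13. Its log2 fold changes were -1.48 ± 0.40 and -1.53 ± 0.40 (adjusted p = 0.00897 and 0.00808 by edgeR). Its raw counts overlapped between DMSO and RG6146. In TMM-normalised CPM all treated libraries, at most 2.95, lay below all DMSO libraries, at least 3.41. Both calls were lost without DMSO replicate 3, the highest library (adjusted p = 0.0754 and 0.0702). The λ constant genes Iglc1, Iglc3 and Iglc4, were not found in the table.

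Ighd, the constant gene of the δ heavy chain, which is spliced from the same primary transcript as Ighm, moved the other way. It had 23, 10 and 30 counts under DMSO, 31, 40 and 26 under JQ1 and 38, 38 and 48 under RG6146. RG6146 libraries lay above all DMSO libraries, and JQ1 libraries overlapped them. The rise passed for RG6146 (1.01 ± 0.28, adjusted p = 0.0124), and the value for JQ1 was 0.65 ± 0.29 (adjusted p = 0.0996). Without DMSO replicate 1 or 2 the RG6146 call was lost (adjusted p = 0.0513 and 0.0552), and without DMSO replicate 3 the JQ1 value passed (1.04, adjusted p = 0.0169). The genes of the switched classes, Ighg1, Ighg2b, Ighg2c, Ighg3, Igha and Ighe, were at or below 0.240 CPM in every group.

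**Figure D3:**
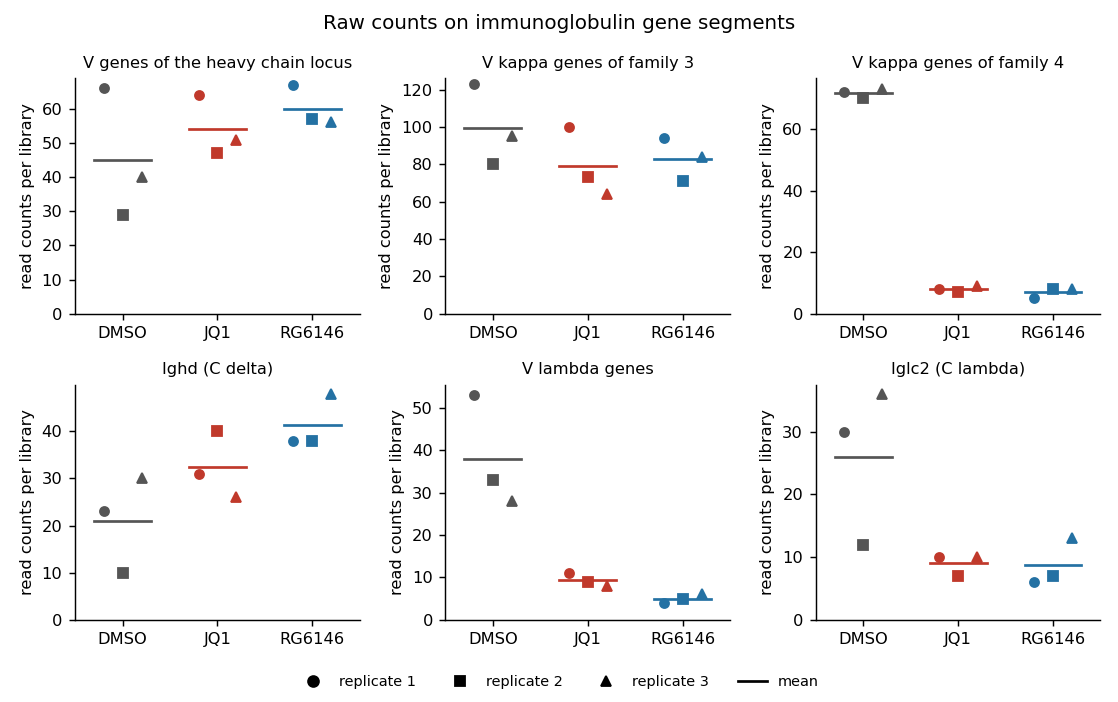
Raw read counts per library, on linear axes from 0, for 4 sets of V genes and for the constant genes Ighd and Iglc2; symbols mark replicates and lines group means. V kappa family 4 goes from 70 to 73 counts under DMSO to 5 to 9 in the treated libraries. Family 3 and the heavy chain V genes overlap between groups in these raw counts, which are not scaled for library depth.

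The list of regulators of the Rag, surrogate light chain and immunoglobulin genes held 27 transcription factors, 24 of them tested. Counts in this and the 5 following lists stand beside the shares of all tested genes. These were 13.6% called higher and 15.4% lower after JQ1, and 12.5% and 13.5% after RG6146. Some listed genes, Rasgrp1 among them, passed the filter only through DMSO, so the list counts are a description. Of the 24 regulators, 14 fell and 3 rose after JQ1, with a median log2 fold change of -0.62. After RG6146, 13 fell and 3 rose, with a median of -0.56. Both octamer-binding factors fell. Pou2f1 went from 132 ± 3.25 CPM (SD, n = 3) to 44.8 ± 2.76 and 43.9 ± 1.11, log2 fold changes of -1.56 (JQ1) and -1.59 (RG6146), and Pou2f2 from 240 ± 12.4 CPM to 93.6 ± 1.48 and 95.2 ± 0.587 (-1.36 and -1.33). Ikzf1 (Ikaros), a regulator of lymphoid genes, fell (-1.59 and -1.57, adjusted p = 6.08e-10 and 7.36e-10), and all of its treated libraries, 72.4 to 79.1 CPM, were below 202 CPM, its lowest DMSO library. Foxp1, which binds the enhancer of the Rag genes, fell (-0.75 and -0.78). Ebf1 and Myb, activators of early B cell genes, also fell, Ebf1 with -0.80 and -0.64 and Myb with -2.05 and -2.07. Tcf3 (E2A), the E-box factor, did not pass (-0.27 and -0.24). Foxo1, a known activator of the Rag genes, rose in the same cells by 0.47 (JQ1, adjusted p = 0.00242) and 0.36 (RG6146, adjusted p = 0.0170). Foxo3 rose by 0.81 and 0.85, and Id3, an inhibitor of E proteins, by 0.90 and 0.59.

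The list of pre-B-cell and B-cell receptor signalling genes had 15 of 16 members tested, and 10 fell after each compound while none rose. The medians were -0.45 and -0.51. Blk and Pik3ap1 are among the 10, at 4.11 and 7.05 CPM under DMSO. Their means were 1.35 and 2.22 CPM under JQ1 and 1.46 and 1.71 CPM under RG6146, so their tests rest largely on DMSO reads. Rasgrp1, an activator of RAS, had the largest change, from 14.5 ± 2.71 CPM to 1.25 ± 0.192 and 1.92 ± 1.11 (log2 fold changes -3.51 and -2.88), and also passed the filter only through DMSO. Blnk, the adaptor beneath the receptor, fell (-1.22 and -1.03), as did Cd79b, a signalling chain of the receptor, from 101 ± 19.0 CPM to 43.3 ± 2.05 and 45.9 ± 4.94, and the kinase gene Syk (-0.76 and -0.67). Cd79a, which pairs with Cd79b, did not pass (-0.12 and -0.15, adjusted p = 0.415 and 0.296). Blnk is also the neighbour of Dntt, 34740 bases away.

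Of 18 tested genes in the end joining list, which also holds genes that sense or mark breaks, 8 fell and 1 rose after each compound. The medians were -0.34 and -0.38. Lig4, the ligase of the pathway, fell (-1.25 and -0.68), and so did Nbn (-0.81 and -1.36) and Rad50 (-0.57 and -0.43), parts of the complex that senses breaks. H2afx, which encodes the histone variant marked at breaks, rose by 0.99 and 1.00, from 135 ± 9.67 CPM to 270 ± 12.0 and 271 ± 5.70. Of 12 tested genes of class switching and hypermutation, 4 fell after each compound and none rose (medians -0.20 and -0.31). Among these, Rif1, which protects broken ends, fell from 202 ± 9.60 CPM to 122 ± 5.23 and 139 ± 13.0 (-0.73 and -0.54). The repair genes Apex1 (-0.40 and -0.38) and Pms2 (-0.58 and -0.62) also fell. Exo1 passed for RG6146 only (-0.27 and -0.37, adjusted p = 0.0851 and 0.0225). That call of Exo1 was lost with DESeq2 (adjusted p = 0.160) and without DMSO replicate 2 (0.0818) or RG6146 replicate 3 (0.0857), and the JQ1 call of Pms2 with DESeq2 (0.0561).

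The 12 genes of cohesin, its loaders, CTCF and YY1, which fold the receptor loci, were all tested. After JQ1, 5 fell and 2 rose, and after RG6146, 2 fell and 1 rose (medians -0.12 and -0.08), the last counts being near the share of all tested genes. Rad21 (-0.46 and -0.33) and Ctcf (-0.32 and -0.37) fell, Mau2 rose by 0.57 and 0.70, and Yy1 had 0.27 (adjusted p = 0.0136) and 0.18 (adjusted p = 0.1). The JQ1 call of Mau2 was lost with DESeq2 (adjusted p = 0.0866), with library size scaling (0.0693) and without DMSO replicate 1 (0.0763), DMSO replicate 2 (0.0554) or JQ1 replicate 3 (0.113), and that of Yy1 with library size scaling (0.211) and without JQ1 replicate 3 (0.0819). With ERCC scaling, Mau2 lost its calls for JQ1 (adjusted p = 0.185 by edgeR) and RG6146 (0.0791). Yy1 lost its JQ1 call there (0.567) and with a replicate block added (0.0865). Genes of plasma cells and immunoglobulin secretion had 16 of 19 members tested. JQ1 raised 4 and lowered 3, and RG6146 raised 4 and lowered 2 (medians 0.08 and 0.04); the lower counts are near the share of all tested genes. The chaperone gene Hspa5 (BiP), which holds free heavy chains in the endoplasmic reticulum, rose from 490 ± 4.55 CPM to 958 ± 62.7 and 905 ± 27.7, and Dnajb9 rose by 1.17 and 1.07. Herpud1 (-0.32 and -0.37) and Sec11c (-0.27 and -0.35) fell. Both calls of Dnajb9 were lost without DMSO replicate 1 (adjusted p = 0.0521 and 0.0915), the RG6146 call also without RG6146 replicate 2 (0.0604) and with DESeq2 (0.0767). The JQ1 call of Sec11c was lost with no filter (0.0549) and without DMSO replicate 3 (0.0656), JQ1 replicate 1 (0.0778) or JQ1 replicate 3 (0.0564). With ERCC scaling, Herpud1 (adjusted p = 0.421 and 0.453 by edgeR) and Sec11c (0.540 and 0.485) lost their calls after both compounds. Dnajb9 lost its RG6146 call there too (0.0505). No gene of these 6 lists passed the adjusted threshold between the compounds.

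Scaling by ERCC RNAs made fewer calls in each of these lists. Lower calls went from 14 and 13 to 11 and 9 among the regulators, from 10 and 10 to 7 and 5 in receptor signalling, from 8 and 8 to 4 and 1 in end joining, from 4 and 4 to 2 and 0 in class switching, and from 5 and 2 to 0 and 0 in the cohesin list. Their medians moved little: with ERCC scaling they were -0.66 and -0.53 for the regulators, -0.46 and -0.48 for receptor signalling, -0.36 and -0.33 for end joining, -0.22 and -0.30 for class switching, and -0.12 and -0.05 for the cohesin list. With a replicate block added to ERCC scaling, lower calls in the same order were 14 and 13, 9 and 10, 8 and 8, 4 and 3, and 2 and 2. Under ERCC scaling alone, the secretion list had 2 and 1 higher calls in place of 4 and 4, and its medians turned to -0.06 and -0.07 when scaled by library size, which moved the median of all genes to -0.13 and -0.10.

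**Figure D4:**
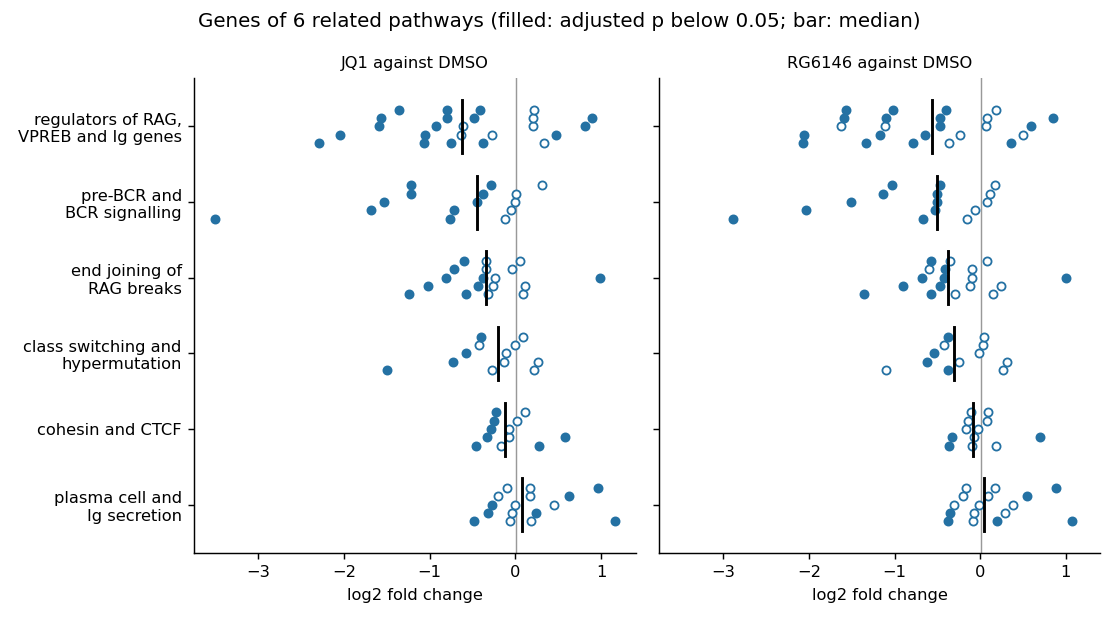
log2 fold change of each tested gene in 6 lists, for JQ1 (left) and RG6146 (right) against DMSO; filled points have an adjusted p below 0.05, black bars are list medians and the grey line is the median of all tested genes. The regulators have the lowest medians, -0.62 and -0.56, and the secretion genes lie around 0.

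The cells held reads of all 8 B lineage markers, and all were tested, with Pax5 lowest at 2.93 (DMSO), 1.89 (JQ1) and 1.37 CPM (RG6146). Their summed level ranged over 663 to 717 CPM in DMSO libraries, 377 to 383 in JQ1 libraries and 387 to 423 in RG6146 libraries, and was lower in every treated library (exact permutation p = 0.1 for each compound, the smallest possible). Its part in the changes of the 9 genes was not tested. Markers of pro-B and pre-B cells summed to 636 to 707, 459 to 483 and 438 to 505 CPM, mostly from Cd24a (569 CPM on average under DMSO). Of 5 tested, 4 fell after each compound, beside 15.4% (JQ1) and 13.5% (RG6146) of all tested genes called lower. Il7r went from 31.1 ± 4.96 CPM to 1.79 ± 0.340 and 2.06 ± 0.610. Il7r and Il2ra were tested only through DMSO, so this count is a description. Markers of mature B cells summed to 136 to 213, 56.6 to 75.2 and 72.3 to 83.1 CPM.

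Markers of cells that could add Dntt or Rag reads were also summed. T cell and thymocyte markers overlapped between groups, at 4.51 to 6.71 CPM (DMSO), 3.92 to 5.71 (JQ1) and 4.32 to 6.38 (RG6146). Only Ptcra of the 13 passed the filter, and Trac, the T cell receptor α constant gene, had no read in any library. Myeloid markers varied widely, at 165, 784 and 359 CPM under DMSO, 90.9, 314 and 62.0 under JQ1 and 93.9, 137 and 128 under RG6146, with list medians of -1.25 and -1.73 on the log2 scale. Of 11 tested by edgeR, only Csf1r was called, higher after both compounds. Of all tested genes, 13.6% (JQ1) and 12.5% (RG6146) were called higher, and 15.4% and 13.5% lower. The RG6146 libraries overlapped DMSO for Csf1r. Its RG6146 call was lost in 4 of the 9 fits that leave out a library and with library size scaling (adjusted p = 0.0752). Both of its calls were lost with ERCC scaling (adjusted p = 0.129 and 0.238 by edgeR). With DESeq2, S100a8 (adjusted p = 0.0452 and 0.0160) and Ngp (0.0366 and 0.00678) were lower after both, S100a9 after RG6146 (0.0368), and the RG6146 call of Csf1r was lost (0.0936). Erythroid markers were highest in JQ1 replicate 2, at 17.9 CPM, against 3.14 to 8.15 in the other libraries. JQ1 replicate 2 is thus the highest treated library for Rag1, Dntt, Vpreb1, Igll1, myeloid and erythroid markers; the part of other cells in these counts was not tested.

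**Figure D5:**
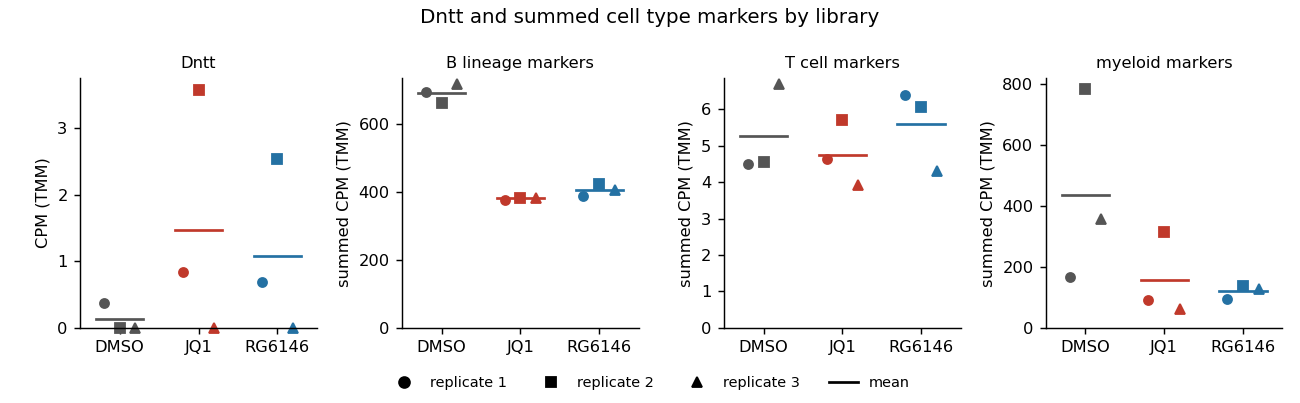
Dntt and the summed markers of 3 cell types in every library, in TMM-normalised CPM on linear axes from 0; symbols mark replicates and lines group means. B lineage markers separate the treated libraries (377 to 423 CPM) from DMSO (663 to 717 CPM), T cell markers overlap, and myeloid markers are highest in DMSO replicate 2.

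As a description, the tested genes with the pattern most like each abundant member over the 9 libraries were found by Pearson's r of log2(CPM + 1). For Vpreb3 they included Ints10 (r = 0.971) and Ctsc (0.966), and the RG6146 call of Ctsc was lost with DESeq2 (adjusted p = 0.142). For Ighm they were Mettl8 (0.971), Rnf24 (0.968) and Celf1 (0.958), none of them called in any comparison. For Igkc they were Ift172 (0.954), Zfp740 (0.949) and Prr13 (0.944), and edgeR called Ift172 and Zfp740 lower after RG6146. The call of Ift172 was lost in 8 of the 9 fits that leave out a library and with DESeq2 (adjusted p = 0.213), and that of Zfp740 with DESeq2 (0.0533) and ERCC scaling (0.333). The 9 libraries share 3 groups and their depth, so such values describe these libraries alone.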

How the data were processed

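The authors deposited raw counts, whole numbers of reads for each gene, for 9 libraries. Another 92 rows are ERCC spike-in RNAs (0.958% to 1.51% of all counts), which were kept out of library sizes. The submitters' processing notes name the build mm10 and the tools cutadapt 1.7, HISAT2 2.1.0 and featureCounts. No source used here says which annotation was counted, whether strand was used or how reads with several matches were treated, so counts of near-identical V genes and overlapping genes are uncertain. GENCODE M21 gave symbols for 42462 of 43629 identifiers.

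Counts were fitted in R 4.3.3 with edgeR 4.0.16: filterByExpr with a minimum count of 10, TMM, and the robust quasi-likelihood test over all 9 libraries, with Benjamini-Hochberg adjustment over 11002 genes and a threshold of 0.05. Fold changes carry edgeR's prior count; SE and 95% intervals are Wald values around the fold change without it. Pooled count ratios were scaled by total gene counts without TMM. Their intervals are exact (Clopper-Pearson) and cover counting error only. Alternatives were library size and ERCC scaling, DESeq2 1.42.0, other filters, a replicate block and leaving out each library.

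All 9 members were named, with up to 4 tested genes of smallest p per list, the nearest protein-coding neighbours, other immunoglobulin genes that passed the filter, and the 3 most similar genes of each member above 10 CPM, of which 1 is not reported here. Foxo1, Foxo3, Id3, Myb, Tcf3, Cd79a, Vpreb2 and the family 4 V genes were added after their values were seen. The members and lists were chosen with earlier results of these data known. All cultures are of 1 clone, so p-values measure only their spread.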

Additional observations from a re-analysis of the deposited data

How the results depend on the processing

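No called value changed sign under any alternative. Of the values of the members under other settings, 248 kept their side of the threshold, 7 newly passed it and 2 lost it. Among other named genes these numbers were 3183, 34 and 125. Values that were not called could change direction and still keep their side, as those of Vpreb1 did. The cause of these changes was not tested. ERCC scaling called 1196 genes for JQ1 and 1082 for RG6146 against DMSO, in place of 3184 and 2863, and DESeq2 called 2147 and 1902. Leaving out a library gave 2492 to 3248 and 2239 to 2970 calls. Between RG6146 and JQ1, edgeR called 4 genes with ERCC scaling, 17 with no filter, 0 above a mean of 10 CPM, 0 with only the 6 libraries fitted, and 0 to 2 without single libraries, against 1 in the chosen fit. At an unadjusted p under 0.05 there were 427 in the chosen fit, 295 above 10 CPM and 405 with 6 libraries.

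Vpreb3 passed for JQ1 with library size scaling (-0.38, adjusted p = 0.00681), above a mean of 10 CPM (-0.28, 0.0279) and with 6 libraries (-0.25, 0.0453). Without single libraries it ranged from -0.32 to -0.17, passing without DMSO replicate 2 (0.0271) and without RG6146 replicate 3 (0.0464). For RG6146, Vpreb3 missed the threshold with ERCC scaling (-0.33, 0.473), as did Igkc (-0.53, 0.175). Igkc passed for JQ1 with library size scaling (-0.35, 0.0381), and ranged from -0.37 to -0.092 without single libraries. Library size scaling gave 27.2% and 29.7% of calls as higher, against 47% and 48%. Without TMM, pro-B and pre-B marker sums differed from DMSO by -247 (JQ1) and -229 (RG6146) CPM and B lineage sums by -362 and -332, further than with TMM (-193, -183, -310 and -286).

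Same-numbered libraries correlated at -0.063 to 0.10 in their deviations from group means, highest for JQ1 and RG6146 replicate 2. Differently numbered libraries ranged from -0.089 to 0.074. The ERCC share of counts fell from replicate 1 to replicate 3 in every group. Pairing by replicate number is thus neither shown nor excluded, and the chosen fit does not use it. With the replicate number as a block, 3092, 2789 and 0 genes were called in the 3 comparisons (395 at an unadjusted p under 0.05 in the last). With block and ERCC scaling together, 2829, 2604 and 1 were called.

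Depth limits Rag2, Dntt, Igll1, Jchain and Vpreb1, each with few reads, and the sign of Vpreb1 turned without single libraries.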
